A study of Mus musculus with 8 samples.

Results

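The genes described here are 10 genes of corticosteroid signalling in newborn mouse heart muscle cells: both corticosteroid receptors, 1 enzyme that activates glucocorticoid, and 7 genes that are widely used as readouts of the glucocorticoid receptor. They were chosen by symbol, with no threshold on their values, and are 10 of 48440 entries in the count table; 9 of them were among the 13771 genes with enough counts to be tested. RNA came from purified cardiomyocytes of C57BL6/J pups on postnatal day 2; the labels name no treatment, mutation or transgene. From each of 4 litters, 1 male and 1 female heart were taken, which gives 4 libraries of each sex and 2 of each litter. The comparisons are therefore between sexes and between litters, with no steroid treatment and no hormone level among the data used here. The libraries held 14226342 to 24910243 counts, with the female of litter 3 the shallowest, and levels are given as CPM, the counts of a gene divided by the scaled library size (TMM) and brought to the same total in every library.

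Glucocorticoid enters the cell and binds the glucocorticoid receptor, which waits in the cytosol in a complex with the heat shock protein Hsp90 and its helpers, then moves to the nucleus and acts on genes as a transcription factor. The mineralocorticoid receptor binds the same hormone, and cardiomyocytes are known to express both. Around birth glucocorticoid supports the maturation of heart muscle, and it induces feedback inhibitors, transcription factors and metal-binding proteins in many tissues.

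The cells matched their label by markers: 8 cardiomyocyte genes summed to between 65694 and 88356 CPM in every library, and 8 fibroblast genes to between 32.4 and 243 CPM. Litter 3 stood apart in several marker lists. Of 9 immediate-early genes, which respond to tissue dissociation, 7 were higher and 1 lower in litter 3, and their sum was 1268 CPM in its male and 1178 CPM in its female against 286 to 552 CPM in the other libraries. Of the fibroblast genes 6 were lower there, with sums of 51.8 and 32.4 CPM against 108 to 243 CPM. Endothelial genes were lower for 5 of 8 and mural genes for 5 of 8, while cardiomyocyte genes were lower for 3 of 8 and summed to 67103 and 65694 CPM against 77557 to 88356 CPM. Of 5 erythroid genes tested 2 were higher, with sums of 528 and 184 CPM against 97.6 to 243 CPM, and the 2 adipocyte genes tested were lower. In litter 4, 6 of 8 fibroblast genes were higher (sums 227 and 108 CPM), and 3 cardiomyocyte genes were higher and 2 lower. Mitochondrial genes took 18.5% of the counts in the male of litter 4 and 13.4 to 15.2% in the other libraries. No marker of the immediate-early, fibroblast, endothelial, mural and cardiomyocyte lists was at 0 in all libraries. Their part in the results below was not tested, and in bulk RNA fewer cells of a type and less RNA per cell cannot be told apart. The labels give only the litter, so a litter and the day on which its hearts were prepared cannot be told apart either.

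The metallothionein promoters are shown first, because both metallothioneins varied between litters and these windows hold matches to a motif for their known regulator. Mt1 and Mt2 encode small cysteine-rich proteins that bind zinc and copper, and they are induced by metal through the factor Mtf1 as well as by glucocorticoid. The genes lie side by side on the plus strand of chromosome 8, with 5513 bases between the end of Mt2 and the start of Mt1. The sequences below are the 250 bases before each RefSeq start (GRCm38.p6), 5′ to 3′ on the plus strand, at chr8:94178839-94179088 for Mt1 and chr8:94172368-94172617 for Mt2. Capitals mark the core of the metal response element, searched on both strands as TGCACNC or TGCGCNC.
Mt1: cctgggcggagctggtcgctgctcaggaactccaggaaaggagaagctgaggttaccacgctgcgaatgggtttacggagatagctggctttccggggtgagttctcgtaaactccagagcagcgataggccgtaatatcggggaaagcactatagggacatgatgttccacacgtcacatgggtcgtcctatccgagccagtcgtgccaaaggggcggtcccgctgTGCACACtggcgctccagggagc
Mt2: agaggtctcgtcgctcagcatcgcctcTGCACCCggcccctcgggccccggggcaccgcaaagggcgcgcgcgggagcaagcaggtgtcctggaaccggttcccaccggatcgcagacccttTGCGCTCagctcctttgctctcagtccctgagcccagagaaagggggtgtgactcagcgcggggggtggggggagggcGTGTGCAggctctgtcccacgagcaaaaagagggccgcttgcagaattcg

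The Mt2 window held 3 core matches, starting 223, 128 and 50 bases before the start, the last of them on the minus strand. The Mt1 window held 1, starting 23 bases before the start. Only the 250 bases before each annotated start were searched, so both counts depend on that start. Elements beyond the windows were not looked for, and the counts do not rank the genes. Of 32851 promoter windows of this length in the table, 21.4% held at least 1 core match and 1.26% at least 3. Among the 10 windows found for 8 of the genes (Tsc22d3 has 3, Nr3c1 and Zbtb16 none), 5 held a core match, the others being 1 each in Hsd11b1, Klf15 and Nr3c2. The full glucocorticoid response element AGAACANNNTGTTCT was in 0 of these 10 windows and in 0.00913% of all windows, and its hexamer AGAACA, which is part of the full element, was in 1 window (of Tsc22d3) and in 16.1% of all. These are letter matches in short windows and say nothing of binding; glucocorticoid response elements often lie far from the start.

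Levels between genes were compared as CPM per kb of merged exons of the GENCODE M21 gene model (GRCm38), as mean ± SD over the 8 libraries. Mt1 was at 66.8 ± 12.6 CPM per kb and Mt2 at 34.7 ± 20.4. Tsc22d3 followed at 18.5 ± 2.26 and Nr3c1 at 10.7 ± 1.14. Below them were Klf15 (7.36 ± 1.13), Klf9 (6.53 ± 0.840), Nr3c2 (3.04 ± 0.547), Zbtb16 (2.02 ± 0.747) and Fkbp5 (1.26 ± 0.745). Hsd11b1 was last at 0.0392 ± 0.0260 CPM per kb. In this order only Tsc22d3 against Nr3c1, Klf9 against Nr3c2 and Fkbp5 against Hsd11b1 had ranges over libraries that did not overlap; the other neighbours did overlap. The order rests in part on the length used: with the length of the principal transcript, a choice made after the values were seen, the mean of Tsc22d3 (40.8) was above that of Mt2 (39.9), and that of Fkbp5 (3.08) above that of Zbtb16 (2.09), while Mt1 was at 152, since its principal transcript has 549 bases and its merged exons 1246.

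**Figure D1:**
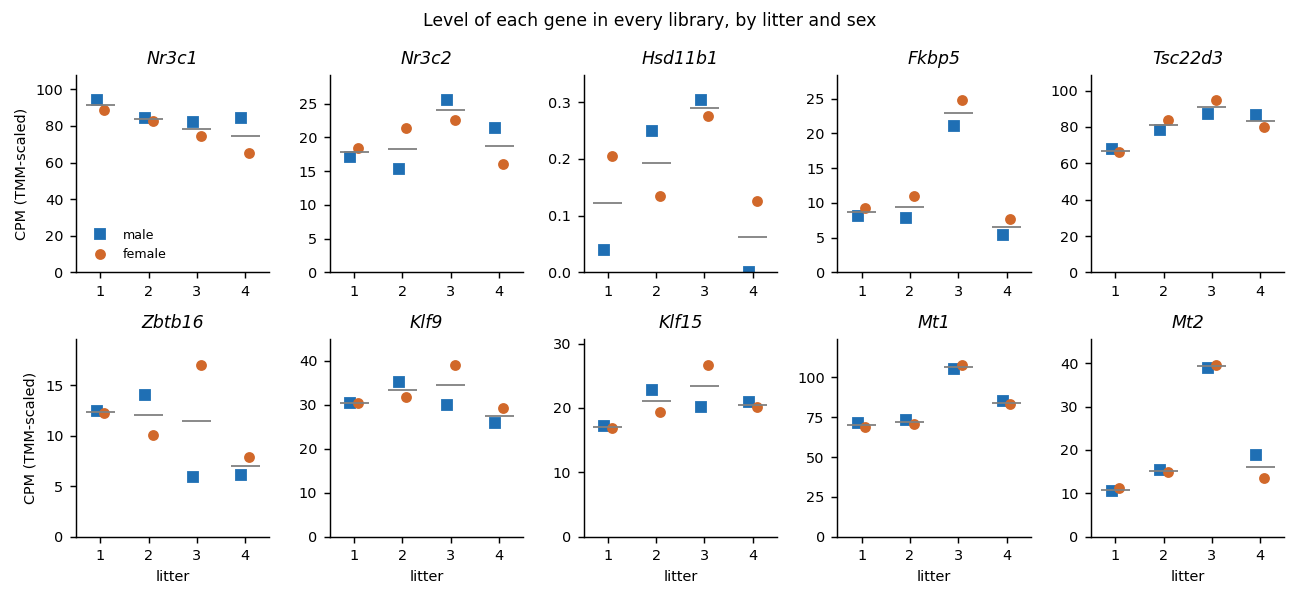
Level of each of the 10 genes in TMM-scaled CPM (vertical axis, from 0) by litter (horizontal axis), with squares for males, circles for females and a grey line for the mean of the litter's 2 libraries. The litter 3 libraries lie above all 6 others for Nr3c2, Fkbp5, Tsc22d3, Mt1 and Mt2 among the tested genes, while Nr3c1 is highest in litter 1.

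Nr3c1 (chr18:39410545-39519421, minus strand) encodes the glucocorticoid receptor. In males of litters 1 to 4 it was at 94.0, 84.5, 82.0 and 84.1 CPM, and in females at 88.6, 82.5, 74.4 and 65.1 CPM, from 1082 to 2343 counts per library. The male was above the female in each litter, while the sexes overlapped, and both libraries of litter 1 were above all 6 others, as were those of 8.89% of tested genes. The log2 fold change of male over female was 0.15 (SE 0.10, 95% interval -0.07 to 0.37) with an adjusted p of 1.00 by edgeR's quasi-likelihood test. With litter as a block it was 0.16 with an unadjusted p of 0.0284 and an adjusted p of 0.384 in edgeR. Male above female in all 4 litters was found for 10.9% of tested genes. Between litters the fitted means of Nr3c1 spanned 0.30 on the log2 scale, from litter 1 down to litter 4, and the test of all litters together gave an adjusted p of 0.0710 in edgeR, which passed without the male of litter 4 (span 0.45, 0.0171) and without litter 2 (0.0339).

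Nr3c2 (chr8:76899442-77245012, plus strand) encodes the mineralocorticoid receptor, which in cardiomyocytes is held largely by glucocorticoid. It was at 17.1, 15.3, 25.5 and 21.3 CPM in males and at 18.5, 21.3, 22.5 and 16.0 CPM in females of litters 1 to 4. The sexes overlapped, and both libraries of litter 3 were above all others, with the female of litter 2 and the male of litter 4 close behind. The difference between the sexes was 0.02 (95% interval -0.36 to 0.39) on the log2 scale. Litter 3 against the mean of the other litters gave 0.41 (SE 0.13, adjusted p 0.0387 in edgeR), while the test over all litters did not pass (adjusted p 0.131). The litter 3 call was lost in 6 of 11 fits that left out a library or a litter. The litter test passed in 5 of 12 such fits, without the male or female of litter 2, litter 2, the male of litter 4 or litter 4 (adjusted p 0.0168 to 0.0479), and without the filter on low counts (0.00221). Within a library the ratio of Nr3c1 to Nr3c2 per kb was 4.63, 4.64, 2.71 and 3.33 in males and 4.05, 3.26, 2.78 and 3.43 in females. It was lowest in both libraries of litter 3, where Nr3c2 was high and Nr3c1 was not.

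**Figure D2:**
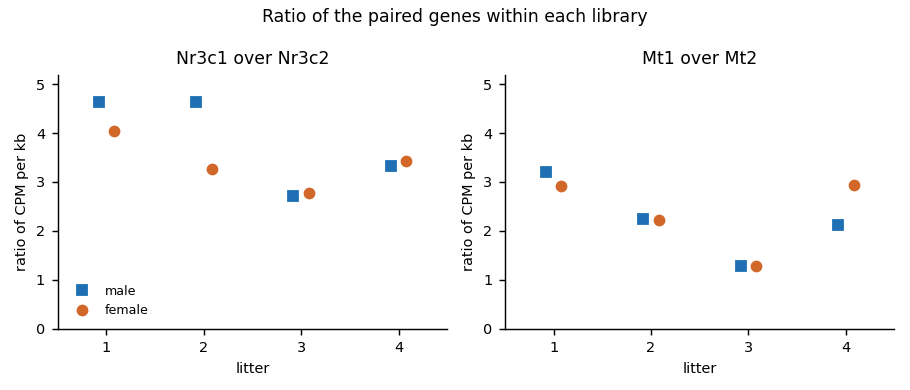
Ratio of CPM per kb of merged exons (vertical axis, from 0) within each library by litter, for Nr3c1 over Nr3c2 (left) and Mt1 over Mt2 (right), with squares for males and circles for females. The ratio is lowest in both libraries of litter 3 in each panel, at 2.71 and 2.78 for the receptors and 1.28 in each for the metallothioneins, where the principal transcript lengths give 2.52 and 2.53.

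Hsd11b1 (chr1:193221634-193264075, minus strand) encodes the enzyme that regenerates active glucocorticoid from its inert keto form inside cells. It had 1, 6, 7 and 0 counts in males and 5, 3, 4 and 3 in females, and was not tested. A count of 0 in the male of litter 4 allows up to 0.167 CPM at 3 counts, and levels this close to that floor carry no order between litters or sexes. H6pd, which supplies the cofactor for that enzyme, was between 40.6 and 46.5 CPM in all libraries and passed no test. Of 8 other genes of steroid synthesis and metabolism listed, H6pd included, 3 could be tested. Star, which carries cholesterol into mitochondria, was at 0.910 to 1.62 CPM and passed no test. Hsd11b2, the enzyme that inactivates glucocorticoid, was at 0 in 6 libraries and at 0.0401 and 0.0899 CPM in the other ones. Cyp11a1, Cyp11b1, Cyp11b2 and Cyp21a1, the adrenal enzymes that make corticosteroids, had 0 counts in every library. Srd5a1, which reduces glucocorticoid and androgen, was lower in litter 3 by an edgeR fit (log2 fold change -1.32, SE 0.36, adjusted p 0.0174), at 0.390 and 0.481 CPM against 0.839 to 1.41 CPM elsewhere. The call was lost with DESeq2 (adjusted p 0.108), without the male of litter 3 (0.253) and without its female (0.0681), and the litter test in 11 of 12 fits that left out a library or a litter; 14.9% of 100-base windows of its transcript occur in other genes.

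The 7 target genes split into Fkbp5, Tsc22d3, Mt1 and Mt2, which differed between litters, and Zbtb16, Klf9 and Klf15, which did not pass the litter test over all litters. That split depends on the fit: without the male of litter 3 the spans were 1.31 for Zbtb16, 0.50 for Klf9 and 0.70 for Klf15. That fit leaves 1 library in litter 3, so it cannot weigh the spread within that litter. Without the filter on low counts all 3 passed with all 8 libraries. The span of Zbtb16 was 0.83 with and without the filter, while its adjusted p in edgeR went from 0.182 to 3.8e-07. Such a pass is therefore not taken as support for a litter difference. Over the 9 tested genes, receptors included, 4 passed the test of all litters together, against 32.1% of all tested genes, so a count of 4 is not far from what the whole table gives. Of these 4, Fkbp5 and Mt2 had a span of at least 1 on the log2 scale, which 7.62% of tested genes reached with a call. The median span of all tested genes was 0.37.

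Fkbp5 (chr17:28399094-28517527, minus strand) encodes a co-chaperone that binds Hsp90 in the receptor complex and lowers its affinity for hormone, a feedback loop of the pathway. It was at 8.10, 7.85, 21.1 and 5.41 CPM in males and at 9.29, 11.0, 24.7 and 7.72 CPM in females of litters 1 to 4, from 97 to 487 counts. Both libraries of litter 3 were above all others, both of litter 4 below all others (as for 8.8% of tested genes), and the female was above the male in each litter. The mean of litter 3 was 22.9 ± 2.57 CPM (SD, n = 2), which is 2.79 times the mean of the other litters, and that of litter 4 was 6.56 ± 1.63 CPM. Against the mean of the others, Fkbp5 was higher in litter 3 by 1.50 on the log2 scale (SE 0.10, adjusted p 1.6e-06 in edgeR). In litter 4 it fell by 0.91 (SE 0.12, adjusted p 0.00214). The fitted litter means spanned 1.81, and the litter test gave an adjusted p of 1.09e-05 in edgeR. Without litter 3 the span over the other litters was 0.51 and the litter test of Fkbp5 no longer passed (adjusted p 0.0774), while the litter 3 and litter 4 contrasts passed in every fit that left out 1 library or any other litter. The fall in litter 4 was smaller without litter 3, at -0.46 (adjusted p 0.0386).

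Tsc22d3 (chrX:140539528-140600659, minus strand) encodes the leucine zipper protein GILZ, an anti-inflammatory mediator of glucocorticoid. It was at 67.7, 78.2, 87.4 and 86.3 CPM in males and at 66.0, 83.9, 94.7 and 79.9 CPM in females. Both libraries of litter 1 were below all others, as were those of 8.67% of tested genes, and both of litter 3 were above all others, with the male of litter 4 close behind. In edgeR it was lower in litter 1 than in the mean of the others, by -0.34 on the log2 scale (SE 0.07, adjusted p 0.00634), and higher in litter 3, by 0.25 (SE 0.07, adjusted p 0.0153). The litter test over all 4 litters gave a span of 0.44 and an adjusted p of 0.00878. That call was lost without the male of litter 1 (adjusted p 0.0526), without the female of litter 1 (0.101) and without litter 1 (0.327), and the litter 3 contrast was lost without the female of litter 3 (0.232) and without litter 1 (0.201). The litter 1 contrast was lost without its male (0.0878) or its female (0.165).

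Mt1 (chr8:94179082-94180327, plus strand) was at 71.1, 73.1, 105 and 85.0 CPM in males and at 68.6, 70.8, 108 and 83.3 CPM in females of litters 1 to 4. The libraries of a litter lay close together, litter 3 was above all others, and litter 4 was above litters 1 and 2. The mean of litter 3 was 107 ± 1.89 CPM (SD, n = 2), which is 1.42 times that of the others. On the log2 scale litter 3 was higher by 0.51 (SE 0.06, adjusted p 7.75e-05), litter 1 had -0.31 (SE 0.06, adjusted p 0.00620) and litter 2 had -0.25 (SE 0.06, adjusted p 0.0363), all in edgeR. The litter test passed with a span of 0.61 and an adjusted p of 0.000295, and without litter 3 the span was 0.27 with an adjusted p of 0.0550. The lower values also rest on litter 3: without it Mt1 was at -0.16 in litter 1 (adjusted p 0.185) and at -0.094 in litter 2 (0.567), and the litter 1 call was lost without its male (0.109) or its female (0.162).

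Mt2 (chr8:94172664-94173568, plus strand) was at 10.5, 15.4, 39.0 and 18.9 CPM in males and at 11.1, 15.0, 39.7 and 13.4 CPM in females. Litter 3 was above all others, litter 1 below all others, and litters 2 and 4 overlapped. Its mean in litter 3 was 39.4 ± 0.542 CPM (SD, n = 2), 2.80 times that of the other litters, and in litter 1 it was 10.8 ± 0.472 CPM. The log2 fold change was 1.51 for litter 3 (SE 0.10, adjusted p 1.6e-06) and -0.97 for litter 1 (SE 0.12, adjusted p 0.000287) in edgeR. The span was 1.86 with an adjusted p of 1.01e-05 for the litter test, which passed in every fit that left out a library or a litter. Without litter 3 the span was 0.56 and the adjusted p 0.0337, and litter 1 was at -0.53 against the others. Of the 100-base windows of Mt2, 27.4% are shared with Gm45774, a gene on the opposite strand with no entry of that name in the count table. Whether counting used the strand is not given in the sources used here, so reads of the pair cannot be told apart. Since Mt2 moved more than Mt1, the ratio of Mt1 to Mt2 per kb was 3.21, 2.24, 1.28 and 2.13 in males and 2.91, 2.23, 1.28 and 2.93 in females, lowest in litter 3. With the lengths of the principal transcripts the ratio was 6.32, 4.41, 2.52 and 4.20 in males and 5.74, 4.39, 2.53 and 5.78 in females, so its size depends on the gene model while litter 3 was lowest with either.

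Zbtb16 (chr9:48654297-48836222, minus strand) encodes the zinc finger repressor PLZF, a strongly inducible glucocorticoid target in several tissues. It was at 12.4, 14.0, 5.94 and 6.08 CPM in males and at 12.2, 10.02, 17.0 and 7.84 CPM in females of litters 1 to 4. Within litter 3 the male was the lowest of all libraries and the female the highest. The litter test of Zbtb16 did not pass (span 0.83, adjusted p 0.182 in edgeR), with a mean of 11.5 ± 7.86 CPM (SD, n = 2) in litter 3 and 6.96 ± 1.24 CPM in litter 4. It passed without litter 3 (adjusted p 0.0175 in edgeR), and without the female of litter 2 the span was 1.33. Leaving out either library of litter 3 removes the spread within that litter, so such a fit cannot weigh it.

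Klf9 (chr19:23141226-23168134, plus strand) and Klf15 (chr6:90462576-90475238, plus strand) encode Krüppel-like transcription factors; Klf15 regulates fuel use in heart muscle. Klf9 ranged from 25.7 CPM in the male of litter 4 to 39.1 CPM in the female of litter 3, and both libraries of litter 4 were below all others. Klf15 ranged from 16.9 CPM in the female of litter 1 to 26.7 CPM in the female of litter 3, and both libraries of litter 1 were below all others. Neither passed the litter test in edgeR, with spans of 0.31 (adjusted p 0.145) for Klf9 and 0.44 (adjusted p 0.0940) for Klf15; Klf15 also passed without the female of litter 2 (0.0495) and without litter 2 (0.0410).

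Counted litter by litter, 5 of the 9 tested genes were higher in litter 3 than in the mean of the others (Nr3c2, Fkbp5, Tsc22d3, Mt1 and Mt2) and 0 were lower, where 13.6% of all tested genes were higher and 14.8% lower. These 5 genes had both litter 3 libraries above all 6 others, as had 15.1% of tested genes. In litter 1, 4 genes were lower (Fkbp5, Tsc22d3, Mt1 and Mt2) and 0 higher, against 5.41% and 7.86% of tested genes. Litter 2 had 1 lower gene, Mt1 (0.879% of tested genes), and litter 4 had 1, Fkbp5 (5.8%). Fkbp5 in litter 1 (log2 fold change -0.36, SE 0.11, adjusted p 0.0481 in edgeR) turned to 0.16 without litter 3. The 4 contrasts share libraries and are not independent, and the genes were chosen with earlier results of these data known. Litter 3 had the highest mean in 7 of 9 tested genes, against 32.3% of all tested genes, the exceptions being Nr3c1 and Zbtb16, which were highest in litter 1. Mt1, Mt2, Tsc22d3 and Nr3c2 shared 1 order of litter means, litter 1 the lowest, then 2, 4 and 3. That order is loose: Nr3c2 was at 17.8 ± 0.965, 18.3 ± 4.25 and 18.7 ± 3.74 CPM (SD, n = 2) in litters 1, 2 and 4. For Mt2, litters 2 and 4 overlapped. The share of all tested genes with this order was not computed. Immediate-early genes were higher and fibroblast genes lower in litter 3, as given above, and their part in these counts was not tested.

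**Figure D3:**
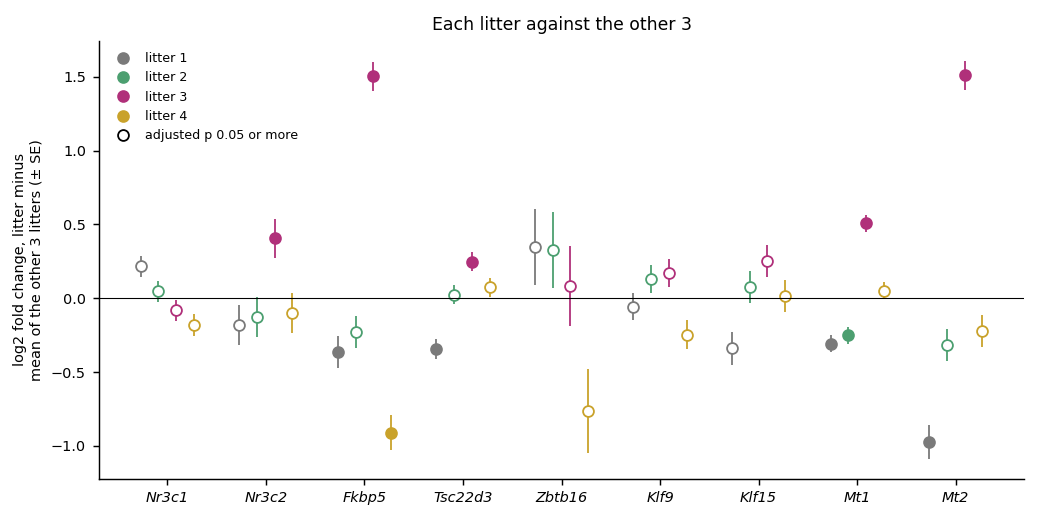
Log2 fold change of each litter against the mean of the other 3 (vertical axis, point ± SE from edgeR) for the 9 tested genes, with filled points for an adjusted p under 0.05. Fkbp5 and Mt2 reach 1.50 and 1.51 in litter 3, and Nr3c1, Zbtb16, Klf9 and Klf15 have no filled point.

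Between the sexes 0 of the 9 tested genes were called by edgeR, where 0.0436% of all tested genes were, and 0 had an unadjusted p under 0.05 without the litter block; DESeq2 also called 0. With litter as a block 0 were called (0.211% of all tested genes) and 2 had an unadjusted p under 0.05, Nr3c1 and Fkbp5, as did 11.6% of all tested genes. The male mean of Fkbp5 was 10.6 ± 7.10 CPM and the female mean 13.2 ± 7.83 CPM (SD, n = 4); male over female was -0.29 on the log2 scale (SE 0.46, 95% interval -1.30 to 0.72). With the block the interval of Fkbp5 was -0.54 to -0.13 around -0.34, with an unadjusted p of 0.00364 and an adjusted p of 0.270 in edgeR. The female was above the male in 4 of 4 litters, as for 9.36% of tested genes. Fibroblast markers moved with sex as well: with the block 5 of 8 were higher in males and 1 of 8 endothelial markers was lower, and the fibroblast sum was 166, 243, 51.8 and 227 CPM in males and 111, 152, 32.4 and 108 CPM in females of litters 1 to 4. Their part in the values of Nr3c1 and Fkbp5 was not tested. None of the 10 genes had male and female values that did not overlap, against 2.07% of tested genes. The widest intervals of male over female were those of Fkbp5, Mt2 (-0.93 to 1.12) and Zbtb16 (-0.99 to 0.43). For Tsc22d3 (-0.29 to 0.25), Klf9 (-0.37 to 0.16), Klf15 (-0.35 to 0.29) and Mt1 (-0.35 to 0.39) the intervals were narrower.

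**Figure D4:**
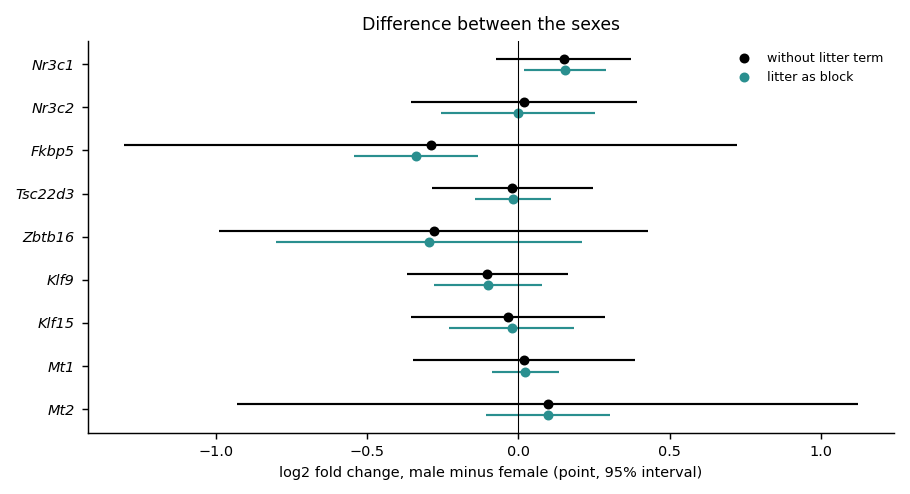
Log2 fold change of male over female (horizontal axis) with its 95% interval from edgeR for the 9 tested genes, in black without a litter term and in teal with litter as a block. Every black interval holds 0, and with the block those of Nr3c1 (around 0.16) and Fkbp5 (around -0.34) do not.

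The proteins that hold and move the receptor formed a separate list of 9 chaperones and helpers, all tested, of which 5 passed the litter test in edgeR, against 32.1% of all tested genes. In litter 3, Stip1, which links Hsp70 to Hsp90, was lower (log2 fold change -0.65, SE 0.08, adjusted p 0.000123), at 95.1 and 83.7 CPM against 124 to 148 CPM elsewhere. Fkbp4, the relative of Fkbp5 that favours receptor transport, was lower there too (-0.30, SE 0.06, adjusted p 0.00268), at 251 and 239 CPM against 273 to 334 CPM. Hsp90ab1 was higher in litter 3 (0.22) and in litter 4 (0.25) and lower in litter 1 (-0.36), and Bag1 and Fkbp4 were higher in litter 4 (0.25 each). Stip1 and Hsp90aa1 were higher in litter 1 (0.27 and 0.35), but for Hsp90aa1 47.6% of its 100-base windows occur in other genes, so its counts are uncertain. Dnaja1, Hspa8, Ppid and Ptges3 did not pass the litter test with all libraries, while Ptges3 passed without litter 2 (adjusted p 0.0399 in edgeR) and Hspa8 without the male of litter 3 (0.0479); 24.0% of the windows of Dnaja1, 32.1% of Hspa8 and 20.2% of Ptges3 are shared as well. Some of these calls depend on other litters: without litter 3, Stip1 in litter 1 was at 0.06 (adjusted p 0.636 in edgeR), and without litter 1, Hsp90ab1 was at 0.11 in litter 3 (0.301) and 0.14 in litter 4 (0.234). Other calls were lost when 1 library was left out: the litter 1 calls of Hsp90aa1 and Hsp90ab1 were lost without either library of litter 1, the litter 3 call of Hsp90ab1 without either of litter 3 (0.187 and 0.0553), that of Fkbp4 without the female, and the litter 4 calls of Bag1 and Fkbp4 without either of litter 4 and that of Hsp90ab1 without the female. Leaving out the male of litter 1 also ended these 3 litter 4 calls, and leaving out the female of litter 1 ended the litter 3 and litter 4 calls of Hsp90ab1. With library size scaling none of the 3 litter 4 calls passed (adjusted p 0.0608 to 0.0814 in edgeR). Fkbp5 and Fkbp4, which compete for the same place on Hsp90, had calls of opposite sign in litter 3.

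Of 10 coregulators, 5 passed the litter test (32.1% of all tested genes did): Ncoa1, Ncoa2, Nrip1, Ep300 and Smarca4. The coactivators Ncoa2 (log2 fold change 0.39) and Ep300 (0.31) were higher in litter 3, and the chromatin remodeller Smarca4 was lower (-0.28). In litter 4, Ncoa1, Ncoa2, Nrip1 and Ep300 were lower, with -0.29, -0.33, -0.38 and -0.38. The litter test of Smarca4 was lost in 8 of 12 fits that left out a library or a litter and with library size scaling (adjusted p 0.0545 in edgeR), and that of Ncoa1 in 6 of 12. Without the female of litter 3, Smarca4 was at -0.20 there (adjusted p 0.215), and without the male Ep300 was at 0.18 (0.200). Of 11 fits, the litter 4 call was lost in 5 for Ncoa1, 3 for Nrip1 and 1 each for Ncoa2 and Ep300. Nrip1 was also higher in litter 1 (0.25, adjusted p 0.0473 in edgeR), a call lost in 7 of 11 fits and with DESeq2 (0.124). The part of the fibroblast genes and of the mitochondrial share, given above, in the litter 4 values was not tested.

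Another 37 genes known as glucocorticoid targets in other tissues were listed. Of these, 35 were tested and 19 passed the litter test in edgeR, which 32.1% of all tested genes did. With DESeq2 the litter test of Per1, Sgk1, Irs2, Cdkn1a and Sesn1 no longer passed (adjusted p 0.0721 to 0.235). In litter 3, 11 were higher and 2 lower, against 13.6% and 14.8% of all tested genes, and the median log2 fold change over the 35 was 0.32, while over all tested genes it was 0.00. This list, like the others, was chosen with earlier results of these data known. Its shares and median are therefore a description and not a test of the targets as a set. Txnip, an inhibitor of glucose uptake and thioredoxin, was at 1390 and 1303 CPM in litter 3 against 419 to 759 CPM elsewhere (log2 fold change 1.14, SE 0.12, adjusted p 4.27e-05 in edgeR). Pdk4, which turns heart muscle from glucose to fat, was at 510 and 555 CPM against 261 to 382 CPM (0.73, SE 0.09, adjusted p 0.000110). Both genes had their highest values of all libraries in litter 3. The clock gene Per1 (0.95), the phosphatase Dusp1 (0.84), glutamine synthetase Glul (0.81) and the mTOR inhibitor Ddit4 (0.72) were higher as well, as were Arrdc2 (0.66), Ptgds (0.62), Sesn1 (0.46), Foxo3 (0.34) and Ppargc1a (0.26). Tgm2, a crosslinking enzyme, was lower (-0.58), at 154 and 157 CPM against 175 to 287 CPM. Of the 100-base windows of Txnip 15.1%, and of those of Tgm2 14.8%, occur in other genes. Anxa1 was lower too (-2.16), at 0.130 and 0.344 CPM, where 3 counts make 0.130 and 0.206 CPM in these libraries; it was also higher in litter 2 (2.06, adjusted p 0.00408 in edgeR), at 2.20 and 1.75 CPM, a call lost in 1 of 11 fits, without the male of litter 2 (0.105). Of the 13 litter 3 calls, 7 were kept in every fit that left out a library or another litter: Dusp1, Ddit4, Pdk4, Glul, Ptgds, Txnip and Tgm2. Those of Per1, Sesn1, Arrdc2, Foxo3 and Ppargc1a were lost without the female of litter 3, at 0.53, 0.13, 0.47, 0.20 and 0.20 in that order. That of Anxa1 was lost without the male of litter 3, at -1.42, or without litter 2. DESeq2 called 9 higher in place of 11, with Per1 at an adjusted p of 0.0933 and Sesn1 at 0.0505. Sgk1, a kinase under both receptors, was at 1.09 to 4.22 CPM and higher in litter 2 in edgeR (1.04, adjusted p 0.0365), a call lost with DESeq2 (0.115) and in 7 of 11 fits that left out a library or a litter. All 8 endothelial markers were also higher in litter 2, with sums of 81.3 and 148 CPM against 16.0 to 61.8 CPM elsewhere, as were 6 of 8 fibroblast and 4 of 8 mural markers, and their part in the value of Sgk1 was not tested. Litter 1 had 2 of the 35 higher and 8 lower, against 7.86% and 5.41% of all tested genes, with a median of -0.19. Without litter 3, 5 of the 8 lower calls were lost, among them Pdk4 (-0.12, adjusted p 0.497), Glul (-0.12, 0.336) and Ddit4 (-0.27, 0.129). Tgm2 was higher in litter 1 (0.52, SE 0.06, adjusted p 0.000289), a call kept in each of 11 fits that left out a library or a litter. The cell cycle inhibitor Cdkn1a was higher there (0.34), and its relative Cdkn1c (-0.76, with 21.8% of its windows shared) and the stress gene Gadd45b (-0.48) were lower. Crispld2, a secreted protein, was at 0.160 and 0.0411 CPM in litter 1, where 3 counts make 0.120 and 0.123 CPM, against 0.412 to 1.06 CPM elsewhere. Irs2, an adaptor of the insulin receptor, was lower in litter 4 (-0.89), at 22.3 and 19.9 CPM against 26.4 to 54.4 CPM. The remaining calls in litters 2 and 4 were Txnip lower in litter 4 (-0.50, adjusted p 0.0337), Ptgds (-0.40, 0.00590) and Dusp1 (-0.43, 0.0466) lower in litter 2, and Crispld2 higher in litter 4 (0.0287), all in edgeR. Those of Txnip, Ptgds and Dusp1 were lost without litter 3, where all 3 were high. The litter 4 value of Txnip rests on 1 library, with the male at 759 CPM and the female at 419 CPM. Without that female it was at -0.13, and without that male at -0.92. Of 11 fits, the call was lost in 3 for Txnip, 2 for Ptgds, 7 for Dusp1 and 8 for Crispld2, and that of Txnip was also lost with DESeq2 (0.104). The litter 1 calls of Cdkn1a, Gadd45b and Crispld2 and the litter 4 call of Irs2 were lost without either library of that litter, and that of Cdkn1c without the male. The litter 1 call of Cdkn1a was also lost with DESeq2 (adjusted p 0.0648). Immediate-early genes were lower for 4 of 9 and higher for 1 in litter 1 (sums 346 and 494 CPM), and lower for 7 of 9 in litter 2 (286 and 387 CPM). In litter 1, 3 of 8 fibroblast and 3 of 8 cardiomyocyte genes were higher and 0 lower, and their part in the litter 1 counts was not tested. Dusp1 and Per1 are also known to respond to stress and dissociation, and the sums of the immediate-early genes were higher in litter 3 too. The part of the immediate-early genes was not tested. No gene of the enzyme, chaperone, coregulator and target lists was called between the sexes in edgeR, with or without the block.

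**Figure D5:**
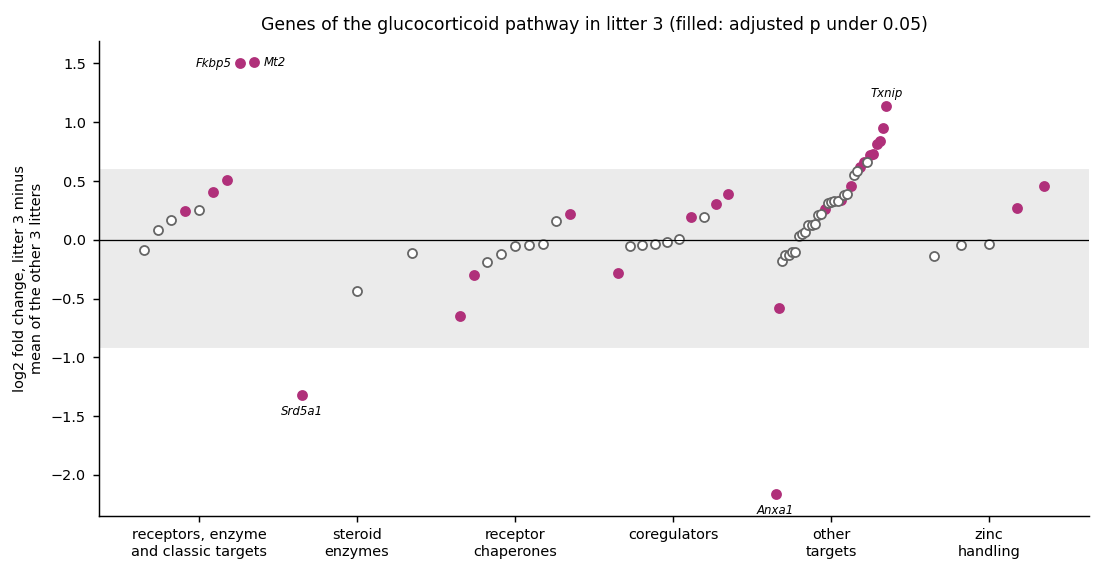
Log2 fold change of litter 3 against the mean of the other litters (vertical axis) for the tested genes of each list, 1 point a gene, filled for an adjusted p under 0.05, with a grey band from the 5th to the 95th percentile of all tested genes (-0.91 to 0.59). Above the band lie Fkbp5 and Mt2 and, among the other targets, Txnip, Per1, Dusp1, Glul, Pdk4, Ddit4, Arrdc2 and Ptgds; Srd5a1 and Anxa1 lie below it.

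Around the metallothioneins, Mtf1, the zinc sensor that acts on the metal response element shown above, was at 16.4 to 20.5 CPM and passed no litter test (adjusted p 0.663 in edgeR). Of the 5 genes listed for zinc handling, 2 were higher in litter 3 and 0 lower, against 13.6% and 14.8% of all tested genes. The zinc exporter Slc30a1, another known Mtf1 target, was higher (log2 fold change 0.46, SE 0.08, adjusted p 0.00153 in edgeR), at 24.1 and 25.4 CPM against 16.7 to 19.8 CPM. The other was an importer that passed only this contrast. Whether Mtf1 has a part in these values was not tested. The importer Slc39a14 passed the test over all litters (adjusted p 0.0440, lost in 8 of 12 fits that left out a library or a litter and with DESeq2) and no contrast of a single litter, and Mt3 passed none.

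For each gene past the litter test, the tested genes outside the 10 with the closest profile over the 8 libraries were found by the root mean square difference of centred log2 CPM. Nearest to Fkbp5 were Ttc25 (0.22), Tenm3 (0.29) and Bfsp2 (0.30), where the profile of Fkbp5 itself has a root mean square of 0.70. Nearest to Mt2, also at 0.70, were Gng2 (0.14), Btg2 (0.17) and Lrrc16a (0.17). Nearest to Mt1 (0.24) were Dnajc28, Hdac9 and Mkrn1, each at 0.05, and nearest to Tsc22d3 (0.17) were Dnajb12 and Rxra at 0.04 and Fam189b at 0.05. These are the closest of 13762 genes over 8 libraries that share litters, and are given as a description.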

How the data were processed

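RNA from cardiomyocytes of 8 pups was purified on columns, and libraries were made with a stranded total RNA kit, per the labels' protocols, which name the molecule as poly(A) RNA. Reads were aligned with STAR 2.7.3a to mm10, per the submitters' processing notes; the counting program, annotation and strand setting are not given in the sources used here. The authors deposited raw read counts per gene symbol, and every test started from those deposited counts. Of 48440 entries 24853 had at least 1 count, and 2 names stand on more than 1 entry.

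Analysis used DESeq2 1.42.0, edgeR 4.0.16 and limma 3.58.1 under R 4.3.3, with Python 3.11.15, pandas 2.3.3 and matplotlib 3.10.9 for sequences and plots. Genes were filtered with filterByExpr on sex (13771 kept) and scaled by TMM. Sex was tested by edgeR's quasi-likelihood F test without a litter term, with 6 residual degrees of freedom. Litter was tested with sex in the model, with 3, first over all litters and then as each litter against the mean of the other 3. P-values were adjusted by Benjamini-Hochberg over all tested genes, at a threshold of 0.05. Standard errors are the size of the log2 fold change over the square root of F. Spread between libraries of a sex was 17.3% as a biological coefficient of variation. Scripts were tested on simulated data. The replicate number is the litter, as the labels give it, so it pairs the sexes: deviations from the sex means correlated at 0.506, 0.503, 0.696 and 0.367 within litters and at -0.482 to 0.270 between them. All pairs of libraries of the same sex differed beyond counting noise (chi-square per degree of freedom 10.4 to 49.2). Pairs of a male and a female were not compared in this way.

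All 10 genes are named, with pathway genes past the litter test, all chaperones and steroid enzymes, and the 3 closest profiles of each gene that passed the litter test; Crebbp, Slc39a10, Cited2 and Scnn1a, which passed only a contrast of 1 litter, fall outside that rule and are not described. The genes and lists were chosen with earlier results of these data known. Log2 CPM used a prior count of 2. Gene models are those of GENCODE M21 on GRCm38, the build that mm10 names, and promoters those of RefSeq; shared sequence is the percent of 100-base windows also found in transcripts of other genes. Alternatives were DESeq2, library size or RLE scaling, no filter, a mean count of at least 50, the litter block, and leaving out each library or litter. Counts limit precision for genes of few reads, and a count of 0 allows up to 3.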

Additional observations from a re-analysis of the deposited data

Results flagged for a closer look

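Mt2 in the female of litter 3, at 39.7 CPM, lay far from the other 3 females, which were at 11.1 to 15.0 CPM; its gap to the nearest was 0.865 of the whole range, above Dixon's 95% critical value for 4 samples. This was 1 of 26 groups of 4 examined, in which chance alone would give about 1.3. The male of litter 3 was at 39.0 CPM, also the highest of its sex.

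Zbtb16 in litter 3 moved apart in the sexes: the male, at 5.94 CPM, was below all other males, and the female, at 17.0 CPM, above all other females. The male of litter 4 was close to the male of litter 3, at 6.08 CPM. The difference between the sexes in that litter was not tested, since each is 1 library.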

How the results depend on the processing

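With the replicate block on litter, 29 genes differed between the sexes in place of 6, and 0 of the 9 tested genes in either fit; the log2 fold change of Nr3c2 turned to -0.0028. Without the filter on low counts, 9 of the 10 genes passed the litter test in place of 4 of 9, as did 40.4% of the 13771 genes in place of 32.1%, and litter 2 had 1249 called genes in place of 575; with a mean count of at least 50 litter 2 had 350. With library size scaling Nr3c1 passed the litter test (adjusted p 0.0298 in edgeR). Fkbp5 in litter 1 was lost with DESeq2 (adjusted p 0.163) and with library size (0.0509), and Mt1 in litter 2 with library size (0.0579). Without the filter Zbtb16, Klf9 and Klf15 passed the litter test too (adjusted p 3.8e-07, 0.0477 and 0.0108 in edgeR). Their spans there (0.83, 0.32 and 0.44) stayed close to those with the filter (0.83, 0.31 and 0.44), and that of Nr3c2 stayed at 0.44. The change therefore lay in the test and not in the size of the differences. Leaving out each library or litter in turn gave 5 to 8 genes between the sexes, 0 to 0 of the 9, 1899 to 4586 genes and 3 to 7 of the 9 between litters, and 359 to 2906, 153 to 1407, 1704 to 4177 and 322 to 1984 genes for litters 1, 2, 3 and 4. The number of the 9 higher in litter 3 went from 3 (without the female of litter 3, or without litter 1) to 7 (without its male), and that of other targets from 8 to 14. Of 11 such fits, Nr3c2 in litter 3 was lost in 6, as was Mt1 in litter 2. Those fits also turned the sign of sex differences: Nr3c2 -0.13 to 0.16, Fkbp5 -0.86 to 0.19, Tsc22d3 -0.11 to 0.0521, Zbtb16 -0.60 to 0.11, Klf15 -0.14 to 0.10, Mt1 -0.11 to 0.16 and Mt2 -0.40 to 0.66; Fkbp5 in litter 1 went from -0.75 to 0.16. The cause was not tested. Litters of 2 libraries, and Hsd11b1 at 0 to 7 counts, limit what could be detected.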
